A study of Mus musculus with 8 samples.

Results

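The 8 genes described here, Thy1, Pdgfra, Pdgfrb, Fap, Vim, S100a4, Tcf21 and Cd44, are used as markers of fibroblasts on the cell surface, in the cytoskeleton and in the nucleus. They were picked as known markers by name, with earlier results of these data already known. All 8 were found among the 17097 genes that the arrays measure with at least 1 probe set carrying a single gene symbol. For a gene with several such probe sets, here Vim with 3 and Cd44 with 4, the one with the highest average signal stands for the gene. No member was removed by a filter.

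The study set mouse fibroblasts and hepatocytes beside fibroblast-derived cells that had been given liver transcription factors, on 1 array per sample. Mouse embryonic fibroblasts (MEF, n = 2) came from C57/B6 embryos at day 13.5. The label of MEF 1 says that head and internal organs had been removed. Induced hepatocyte-like cells (iHep, n = 3) were retrovirally transduced fibroblasts grown on as lines to passage 10, and each line is 1 array. Line 4a3 carried Hnf4a and Foxa3 and formed colonies within 2 weeks. Line 4a3CK carried Hnf4a, Foxa3, c-Myc and Klf4, and line 4a1CK carried Hnf4a, Foxa1, c-Myc and Klf4, and both formed colonies within 5 days. The adult reference was primary hepatocytes (PH, n = 3, the unnumbered sample called PH 3), freed by collagenase from livers of male C57/B6 mice aged 8 to 10 weeks and then held in culture. The iHep medium contained dexamethasone, insulin, fibroblast growth factor 4, hepatocyte growth factor and epidermal growth factor. The MEF medium is not given in the sources used here. Nothing in the labels ties the MEF or PH arrays to different animals or cultures. A p-value here therefore speaks of the spread among arrays, pooled over the 3 groups. In MEF and PH that spread may be technical, and in iHep it lies between lines that carried different factors.

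Fibroblasts build and remodel connective tissue, and no single protein defines them. Thy1 is a small surface glycoprotein anchored in the membrane by a lipid. Pdgfra and Pdgfrb are the receptor tyrosine kinases for platelet-derived growth factors (PDGFs), which drive division and movement of mesenchymal cells. Fap is a surface serine peptidase of the Dpp4 family that is found on embryonic and activated fibroblasts. Cd44 is the main receptor for hyaluronan and is present on many cell types. Vim forms the intermediate filaments of mesenchymal cells, and S100a4, also called fibroblast-specific protein, is a small calcium-binding protein that binds myosin. Tcf21 is a basic helix-loop-helix transcription factor of mesenchymal precursors. In intact liver these genes are known mainly from stellate cells, portal fibroblasts, mesothelium and leukocytes rather than from hepatocytes.

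Values are log2 signals, so that a difference of 1 is 2-fold. A gene passed a comparison at a Benjamini-Hochberg adjusted p under 0.05 in limma, over all 17097 genes, together with a difference of at least 1. The background ceiling of an array is the 95th percentile of its 40 control probe sets designed without a mouse target. It lay at 3.61 and 3.66 in MEF 1 and MEF 2, between 4.24 and 4.43 in the lines, at 3.49 and 3.55 in PH 1 and PH 2, and at 4.52 in PH 3. PH 3 also had the highest array median, 5.06 against 4.23 to 4.45 on the other arrays. Over all genes the median PH minus MEF difference was 0.25, and 0.02 after quantile normalization. Each gene is read by its own probes, so signals are compared between arrays and not between genes.

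The RefSeq promoter table held 5 of the 8 members, Pdgfra, Vim, S100a4, Tcf21 and Cd44. The 250 bases before the transcript start (GRCm38.p6, 5′ to 3′ along the gene) are shown for the 4 of them that were above the background ceiling on at least 7 arrays, since they gave 4 different patterns over the groups. Capitals mark matches on either strand to an E box (CANNTG, which Tcf21 and Twist proteins bind), a TATA box (TATAAA), a GC box (GGGCGG) or an AP-1 site (TGANTCA). No matches overlapped.
Pdgfra, chr5:75152001-75152250, plus strand: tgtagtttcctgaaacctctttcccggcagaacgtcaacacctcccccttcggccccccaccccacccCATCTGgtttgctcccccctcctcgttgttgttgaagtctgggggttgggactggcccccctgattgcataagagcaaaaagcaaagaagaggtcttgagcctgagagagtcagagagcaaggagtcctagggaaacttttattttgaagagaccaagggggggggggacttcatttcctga
S100a4, chr3:90603520-90603769, plus strand: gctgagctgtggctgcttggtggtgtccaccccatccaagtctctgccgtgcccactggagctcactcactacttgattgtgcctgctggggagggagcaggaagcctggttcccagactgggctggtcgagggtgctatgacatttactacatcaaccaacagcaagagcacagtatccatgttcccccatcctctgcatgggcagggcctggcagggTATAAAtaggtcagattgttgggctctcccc
Vim, chr2:13574061-13574310, plus strand: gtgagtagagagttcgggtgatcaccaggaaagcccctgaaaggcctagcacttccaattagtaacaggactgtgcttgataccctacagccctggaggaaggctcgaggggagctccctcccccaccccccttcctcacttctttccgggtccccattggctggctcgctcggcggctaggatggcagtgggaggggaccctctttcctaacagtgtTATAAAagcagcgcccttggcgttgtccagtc
Cd44, chr2:102901666-102901915, minus strand: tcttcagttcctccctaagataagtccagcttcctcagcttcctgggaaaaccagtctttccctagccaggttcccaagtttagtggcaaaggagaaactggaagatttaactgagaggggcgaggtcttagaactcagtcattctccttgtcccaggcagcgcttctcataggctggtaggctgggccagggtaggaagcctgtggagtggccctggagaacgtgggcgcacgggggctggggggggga
The Pdgfra window held 1 E box, at position -182, and the S100a4 and Vim windows each held 1 TATA box, at -31 and -32 from the start. The Cd44 and Tcf21 windows held none of the 4 motifs. Of 32851 promoter windows of the same length, 66.2% held an E box, 12.4% a TATA box, 32.7% a GC box and 6.75% an AP-1 site. S100a4 and Vim each carried a TATA box at nearly the same place, and their signals over the 8 arrays ran differently, as given further on. A link between the motifs and the signals was not tested.

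The 8 markers did not all pass as lower. Thy1, Pdgfrb, Fap and S100a4 passed as lower in PH than in MEF, and these genes and Cd44 in the iHep lines. Every value of Pdgfra in PH and in iHep, and of Cd44 in PH, also lay below both MEF values, without passing. Vim was near the top of the signal range in all 3 groups. Tcf21 was below the background ceiling on every array, MEF included, so these MEF samples do not show it as a fibroblast marker. It is read by 1 probe set, so a missing transcript and a probe set without signal cannot be told apart. The comparisons of PH and of iHep with MEF share the same MEF arrays and are not independent of each other.

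**Figure D1:**
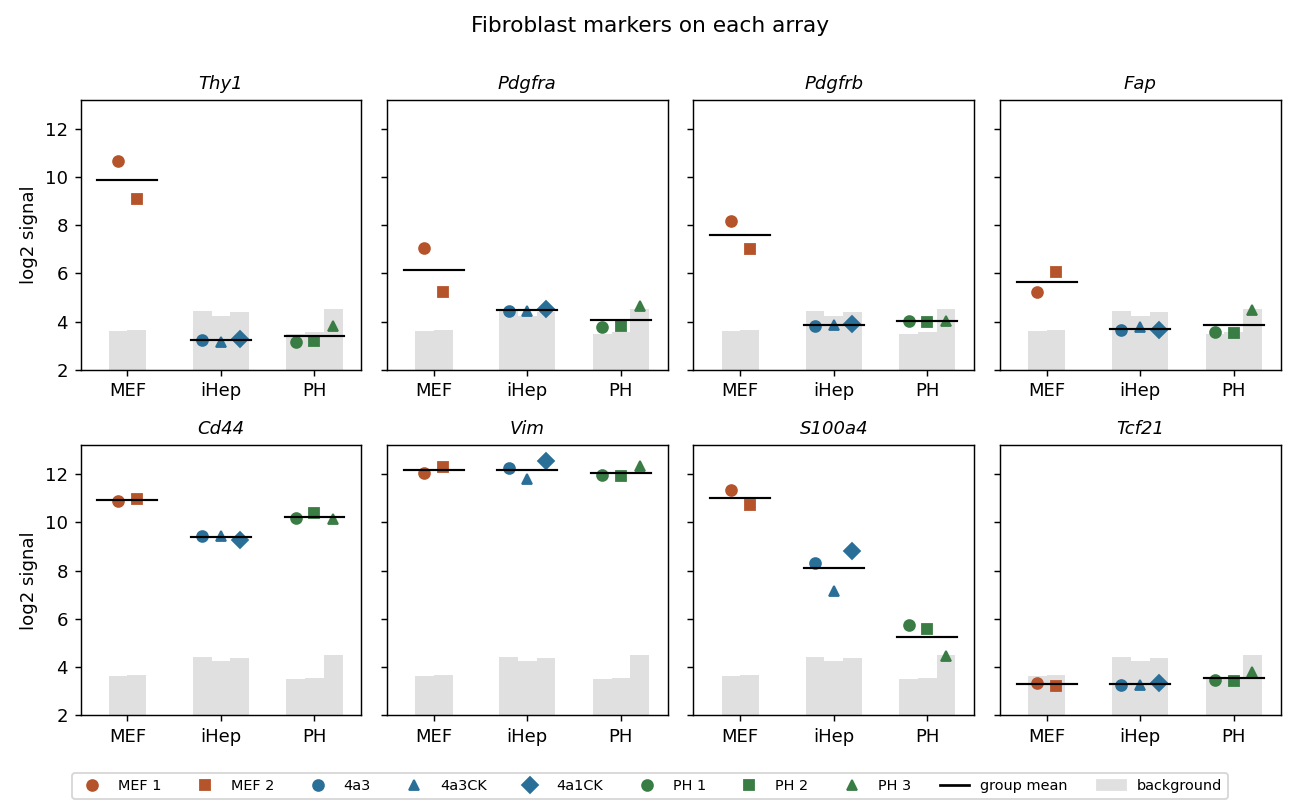
Log2 signal (vertical axis) of the 8 markers on each array, grouped on the horizontal axis as MEF, iHep and PH, with a point per array, a line at the group mean and a grey bar up to the background ceiling of that array. Thy1, Pdgfrb and Fap stand above the grey bars in MEF, S100a4 steps down from MEF over iHep to PH, Vim is level between 11.79 and 12.54, and Tcf21 lies within the bars.

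Against MEF, 4 of 8 members passed as lower and 0 as higher in PH, where 2.47% of all genes passed as lower and 3.37% as higher. In the iHep lines 5 of 8 passed as lower and 0 as higher, where 4.47% of all genes passed as lower and 1.98% as higher. The median difference of the members was -1.92 in PH and -1.81 in iHep, while over all genes it was 0.25 and 0.16. Every PH value lay below both MEF values for 6 members, and every iHep value did for 6 members, against 7.9% and 18.4% of all genes. Between iHep and PH, 1 of 8 members passed as higher and 0 as lower, where 1.49% and 5.64% of all genes passed. These shares depend on PH 3. Over all genes 254 passed as higher and 965 as lower with it, and 884 and 922 without it. For 3 members, Cd44, Pdgfrb and Tcf21, every iHep value lay below every PH value, against 21.3% of all genes. Tcf21 was below the background ceiling on every array and Pdgfrb in all lines, so only the order of Cd44 can be read. The share of all genes that passed as lower in PH than in MEF rests on the scaling, with 577 higher and 423 lower as deposited and 519 higher and 608 lower after quantile normalization. No member that passed as deposited changed its direction in any of the alternatives.

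**Figure D2:**
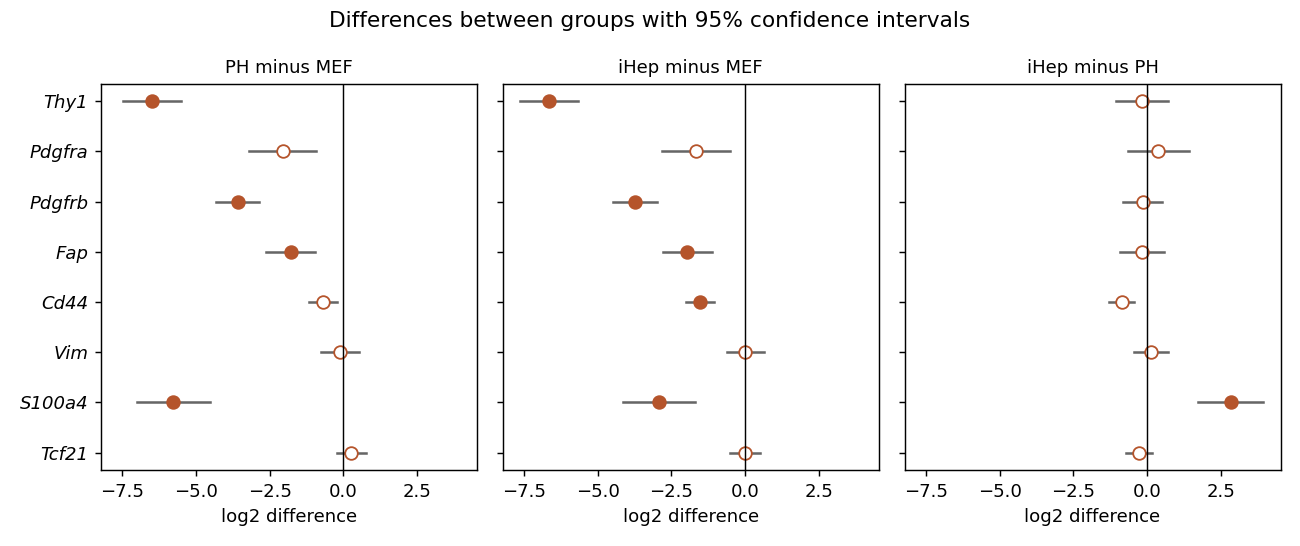
Differences in log2 signal (horizontal axis) of the 8 markers (vertical axis) for PH minus MEF, iHep minus MEF and iHep minus PH, with bars for the 95% confidence interval from limma and filled points for genes that passed. Thy1 has the largest difference from MEF in both comparisons, and S100a4 is the only filled point between iHep and PH.

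Thy1 (chromosome 9, 44043384 to 44048579, GRCm38.p6) separated MEF from all other arrays by the widest margin of the 8. Its log2 signal was 10.67 in MEF 1 and 9.08 in MEF 2. It was 3.24 in 4a3, 3.15 in 4a3CK and 3.27 in 4a1CK, and it was 3.16, 3.20 and 3.81 in PH 1, PH 2 and PH 3. Both MEF arrays were high, and all 6 others lay below their background ceilings. The difference was -6.48 ± 0.43 (SE) in PH (adjusted p = 8.98e-05) and -6.65 ± 0.43 in iHep (adjusted p = 0.00012). Because the low groups give only a bound, Thy1 was at least 64.8-fold higher in MEF than in PH and at least 45.9-fold higher than in iHep, with each array's ceiling taken as its limit. Between iHep and PH the difference was -0.17 (95% interval -1.06 to 0.72), a comparison of signals that were all below background.

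The PDGF receptors were measured well above background in MEF only. Pdgfrb (chromosome 18, 61045127 to 61085067) was at 8.17 in MEF 1 and 7.03 in MEF 2. It was at 3.83, 3.84 and 3.92 in 4a3, 4a3CK and 4a1CK, and at 4.02, 3.97 and 4.04 in PH 1 to PH 3. MEF stood apart, the lines were all below their ceilings, and in PH 2 of 3 arrays were slightly above theirs. Pdgfrb fell by 3.59 ± 0.32 in PH (adjusted p = 0.000337) and fell by 3.74 ± 0.32 in iHep (adjusted p = 0.000424), the latter as a bound at least 9.48-fold. The difference between iHep and PH was -0.15 (95% interval -0.80 to 0.51).

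Pdgfra (chromosome 5, 75151322 to 75198206) was the receptor on which the MEF arrays differed most, at 7.05 in MEF 1 and 5.21 in MEF 2. It was 4.45, 4.44 and 4.51 in 4a3, 4a3CK and 4a1CK, and 3.79, 3.81 and 4.63 in PH 1 to PH 3. The MEF arrays were again the highest, but the other arrays exceeded their ceilings by no more than 0.30. Pdgfra did not pass as deposited in PH, with a difference of -2.05 ± 0.50 (adjusted p = 0.0502), nor in iHep, with -1.66 ± 0.50 (adjusted p = 0.095). After quantile normalization it passed in both, at -2.29 (adjusted p = 0.0296) and -1.82 (adjusted p = 0.044). Without MEF 2 the differences were -2.97 (adjusted p = 0.00601) and -2.58 (adjusted p = 0.0121), and without MEF 1 they were -1.13 and -0.74. At the same difference of -2.05 it also passed in PH with the mean of all probe sets (adjusted p = 0.0421), without dim genes (0.045) and with a trended and robust variance (0.0342). Pdgfra thus lies at the threshold in PH, and the size of its difference depends on which MEF array is used.

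Fap (chromosome 2, 62500936 to 62575509) was moderate in MEF, at 5.22 in MEF 1 and 6.07 in MEF 2, the reverse order of Thy1 and the PDGF receptors. It was 3.64, 3.78 and 3.63 in 4a3, 4a3CK and 4a1CK and 3.55, 3.55 and 4.48 in PH 1 to PH 3. Apart from MEF only PH 1 reached its ceiling, and it did so by 0.06. Fap fell by 1.79 ± 0.36 in PH (adjusted p = 0.0225) and fell by 1.96 ± 0.36 in iHep (adjusted p = 0.0169), the latter as a bound at least 2.45-fold. In PH the call was lost without MEF 2 (adjusted p = 0.187), without PH 1 (0.0815) or without PH 2 (0.0802), and in iHep without MEF 2 (-1.54, adjusted p = 0.132) or without 4a3 (adjusted p = 0.0561). Between iHep and PH the difference was -0.17 (95% interval -0.91 to 0.57).

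Cd44 (chromosome 2, 102811141 to 102901669) was far above background on all 8 arrays and lowest in the iHep lines. It was 10.89 in MEF 1 and 10.96 in MEF 2. It was 9.46, 9.42 and 9.27 in 4a3, 4a3CK and 4a1CK, and 10.17, 10.38 and 10.16 in PH 1 to PH 3. The 3 groups did not overlap, with PH between MEF and iHep. Cd44 fell by 1.54 ± 0.21 in iHep against MEF (adjusted p = 0.00377), and this call held whichever array was left out. In PH against MEF the difference of -0.69 ± 0.21 (95% interval -1.16 to -0.22) did not pass (adjusted p = 0.107). The iHep minus PH difference of -0.85 ± 0.19 (95% interval -1.27 to -0.43) had an adjusted p of 0.0285 but was under 2-fold.

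The other Cd44 probe sets were read one by one. Probe set 1434376_PM_at gave 10.72 and 10.86 in MEF, 8.67, 8.87 and 8.57 in the lines, and 10.14, 10.41 and 9.81 in PH. Probe set 1452483_PM_a_at gave 7.77 and 7.40 in MEF, 5.01, 5.07 and 5.35 in the lines, and 6.30, 6.45 and 6.52 in PH. Both put the lines lowest and PH between, as the probe set used did. The last one, 1443265_PM_at, was below the ceiling on all 8 arrays, from 3.09 to 3.83, and so gives no order.

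**Figure D3:**
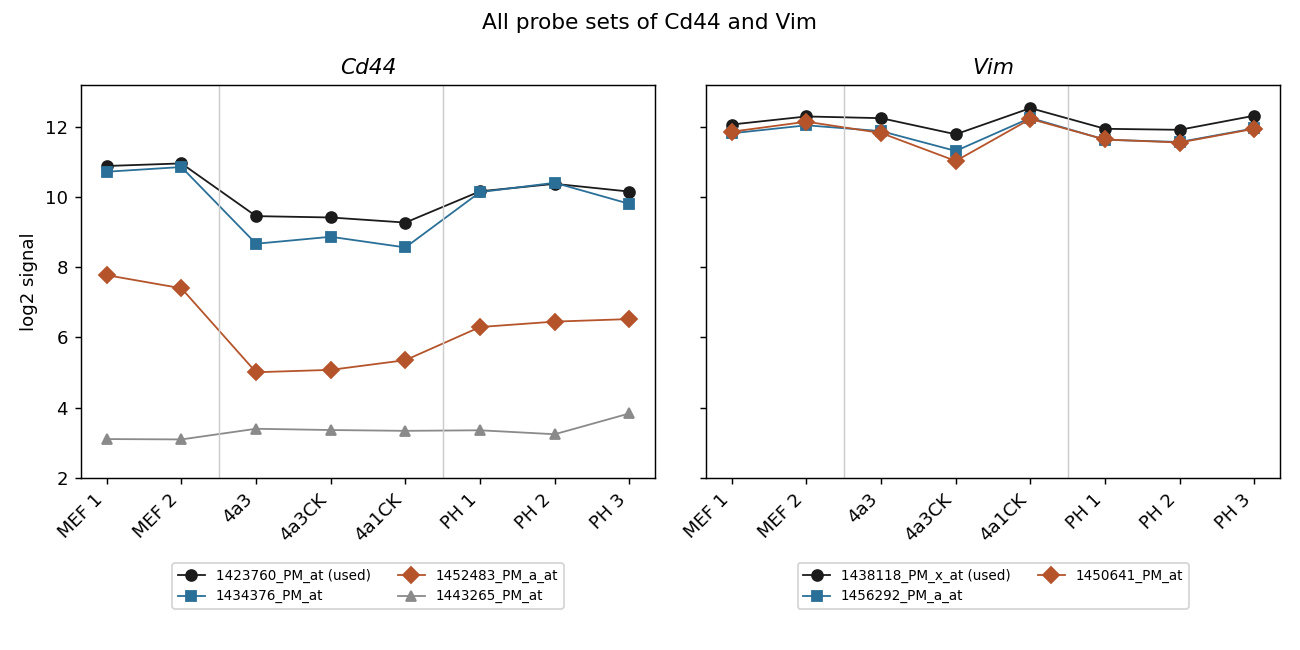
Log2 signal (vertical axis) of every probe set of Cd44 and Vim on the 8 arrays (horizontal axis), 1 line per probe set, with black for the probe set used. Of the 4 Cd44 probe sets 3 are lowest in the iHep lines and 1 lies at background throughout, and the 3 Vim probe sets share a dip in 4a3CK.

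Vim (chromosome 2, 13574311 to 13582826) did not separate the groups. It was 12.07 and 12.30 in MEF 1 and MEF 2. It was 12.25, 11.79 and 12.54 in 4a3, 4a3CK and 4a1CK, and 11.95, 11.92 and 12.32 in PH 1 to PH 3. The groups overlapped, and the cultured hepatocytes read within the range spanned by the iHep lines, as MEF did. The difference was -0.12 ± 0.28 in PH against MEF (95% interval -0.76 to 0.52), 0.01 ± 0.28 in iHep against MEF (-0.63 to 0.65) and 0.13 ± 0.25 in iHep against PH (-0.44 to 0.70). The iHep differences turned negative under quantile normalization, at -0.38 and -0.095, so they have no direction. Vim lay only 0.10 to 1.06 below the highest signal of each array. Near the top of the range signals may be compressed, so equal signals do not show equal amounts of RNA.

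The other Vim probe sets, 1450641_PM_at and 1456292_PM_a_at, ran from 11.03 to 12.23 and from 11.32 to 12.26 over the 8 arrays. In both, 4a3CK was lowest and 4a1CK highest, as in the probe set used. The range within the iHep lines was therefore wider than the distance between any group means.

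S100a4 (chromosome 3, 90603770 to 90606045) was the member graded over all 3 groups. It was 11.34 in MEF 1 and 10.71 in MEF 2. It was 8.32, 7.18 and 8.81 in 4a3, 4a3CK and 4a1CK, and 5.74, 5.57 and 4.46 in PH 1 to PH 3. All MEF values lay above all iHep values, which lay above all PH values, and only PH 3 was below its ceiling. S100a4 fell by 5.77 ± 0.54 in PH against MEF (adjusted p = 0.000433), fell by 2.92 ± 0.54 in iHep against MEF (adjusted p = 0.0168), and was higher by 2.85 ± 0.48 in iHep than in PH (adjusted p = 0.0104). The comparisons with PH kept their call whichever array was left out. That of iHep with MEF was lost without MEF 1 (-2.61, adjusted p = 0.124) or without MEF 2 (-3.24, adjusted p = 0.055). With the level of the bacterial hybridization controls as a block, the iHep minus MEF difference was -1.72 (adjusted p = 0.161). That level was 8.96 to 9.14 in the lines against 8.03 and 8.23 in MEF, which never share a side of the block. Its effect was set by the PH arrays alone, so this fit cannot decide the call.

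Tcf21 (chromosome 10, 22817263 to 22820143) was not measured above background anywhere. Its signals were 3.34 and 3.24 in MEF, 3.27, 3.24 and 3.33 in 4a3, 4a3CK and 4a1CK, and 3.47, 3.42 and 3.79 in PH. PH 3 was the highest array, and it also had the highest ceiling. Differences between such values have no order and no fold is given.

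Among the iHep lines, which differ in their factors and in the time to colonies and are 1 array each, S100a4 was the only member past 2-fold. Its 4a3CK minus 4a3 difference was -1.14 and its 4a3CK minus 4a1CK difference -1.63, while 4a1CK minus 4a3 was 0.49. Vim was also lowest in 4a3CK, with differences of -0.46 from 4a3 and -0.75 from 4a1CK. The other 6 members differed by at most 0.18 between any pair of lines. Of all genes 9.81%, 10.7% and 5.89% differed at least 2-fold in these 3 pairs, taken as 4a3CK with 4a3, 4a3CK with 4a1CK and 4a1CK with 4a3. With a single array per line there is no test.

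The samples fall into a first and a second range of sample numbers, which the labels do not call batches. MEF 2, PH 3 and the 3 lines are in the first, and MEF 1, PH 1 and PH 2 in the second. The PH minus MEF difference in the first and second range was -5.27 and -7.49 for Thy1, -2.99 and -4.17 for Pdgfrb, and -0.58 and -3.25 for Pdgfra. Fap gave -1.58 and -1.68, and S100a4 gave -6.25 and -5.68. The directions were thus the same in both ranges, with Pdgfra the member whose size differed most between them. Within the first range the lines differed from MEF 2 by -5.86 in Thy1, -3.17 in Pdgfrb, -2.38 in Fap, -2.61 in S100a4 and -1.58 in Cd44. The second range holds no line.

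The partners of the markers were followed through lists of related genes, named by role and chosen with earlier results of these data known. Counts are of genes measured, and a range beside a count covers the 8 fits that each left out 1 array. In bulk RNA, fewer cells of a type and less RNA per cell cannot be told apart.

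Among 19 genes of PDGF ligands and receptor signalling, 1 passed as higher and 1 as lower in PH than in MEF, and the ligands went opposite ways. The ligand gene Pdgfb was 4.13 and 4.17 in MEF, 4.34, 3.97 and 4.16 in 4a3, 4a3CK and 4a1CK, and 6.87, 6.71 and 6.21 in PH 1 to PH 3. PH stood apart from both other groups, by 2.45 ± 0.26 from MEF (adjusted p = 0.000839), and in the lines, all below their ceilings, it was at least 4.74-fold lower than in PH (adjusted p = 0.000673). Pdgfd, a ligand that acts through Pdgfrb, was 7.36 and 5.85 in MEF and from 3.09 to 3.50 on the other 6 arrays, below background. As bounds against the ceilings it was at least 6.74-fold higher in MEF than in PH (adjusted p = 0.00199) and at least 4.77-fold higher than in iHep (adjusted p = 0.00147). The calls of both ligands held without any 1 array. In iHep against MEF 1 of 19 passed as higher (range 0 to 2) and 2 as lower (range 1 to 3). Besides Pdgfd these were the immediate early gene Fos, with 3.88 (adjusted p = 0.0471), and the transcription factor Stat3, with -1.29 (adjusted p = 0.034). Fos and Stat3 each lost their call in most of the fits with 1 array left out. The median of the list was 0.31 in PH and -0.15 in iHep, near the 0.25 and 0.16 of all genes.

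Thy1 binds integrins and sits in lipid rafts with Src family kinases. Of 15 such genes, 3 passed as lower and 2 as higher in PH than in MEF. These counts ranged from 1 to 3 and from 0 to 2 when 1 array was left out, with 1 and 1 without PH 3 and 1 and 0 without MEF 2. In iHep 2 passed as lower (range 1 to 3) and 1 as higher (range 1 to 2). The kinase Fyn was 7.36 and 6.72 in MEF, 4.46, 4.64 and 4.14 in 4a3, 4a3CK and 4a1CK, and 4.82, 4.50 and 5.59 in PH 1 to PH 3. MEF was apart and high, and Fyn fell by 2.07 in PH (adjusted p = 0.0115, and 0.113 without MEF 1) and fell by 2.63 in iHep (adjusted p = 0.00432). Between iHep and PH, 2 of 15 passed as higher and 2 as lower, and the higher ones were both caveolin genes. Cav1 was higher by 4.14 (adjusted p = 0.00449) and Cav2 by 1.85 (adjusted p = 0.00365) in iHep than in PH, with each call held in all 8 fits. The lower ones were Flot2, with an iHep minus PH difference of -1.52, and Cd59a, with -2.27, each also held in all 8 fits. In PH against MEF, Cav1 had a difference of -3.75 (adjusted p = 0.0109), a call not held in all 8 fits.

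Of 9 genes of the Dpp4 peptidase family and genes listed with it, which exclude Fap itself, 3 passed as higher and 0 as lower in PH than in MEF. Dpp4, the closest relative of Fap, was 2.96 and 3.04 in MEF, 3.16, 3.08 and 3.06 in the lines, and 4.54, 4.85 and 5.83 in PH 1 to PH 3. It was above background in PH only, at least 2.70-fold higher than in MEF (adjusted p = 0.0107) and at least 1.64-fold higher than in iHep (adjusted p = 0.00846). The other 2 were Dpp7, with 1.41, and Serpinf2, with 2.80 (adjusted p = 0.0193 and 0.0469). Without MEF 1 or without MEF 2 none of the 3 passed.

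Cd44 binds hyaluronan outside the cell and is tied to actin inside it by ezrin, radixin and moesin. Of 18 genes around Cd44, 5 passed as lower and 1 as higher in iHep than in MEF, with 2 to 5 lower when 1 array was left out. Msn, which codes for moesin, was 10.94 and 10.98 in MEF, 9.16, 9.08 and 9.03 in 4a3, 4a3CK and 4a1CK, and 10.84, 10.85 and 10.32 in PH 1 to PH 3. Like Cd44 it was lowest in the lines, with a difference of -1.87 from MEF (adjusted p = 0.00299) and -1.58 from PH (adjusted p = 0.00365), both held in all 8 fits. Ezr, which codes for ezrin, was 6.49 and 8.05 in MEF, 11.04, 10.51 and 10.97 in the lines, and 9.09, 9.01 and 8.50 in PH. It ran in the opposite order, with 3.57 for iHep minus MEF (adjusted p = 0.00258), held in all 8 fits, and 1.97 for iHep minus PH (adjusted p = 0.02, lost without 4a3, 4a1CK, PH 1 or PH 2). Mmp14, a membrane metalloproteinase that cleaves Cd44, fell by 2.83 in iHep against MEF (adjusted p = 0.000283) and fell by 1.42 in PH (adjusted p = 0.00649, lost without MEF 1 or MEF 2). Vcan, the hyaluronan-binding proteoglycan versican, fell by 3.58 in PH (adjusted p = 0.00113). In PH against MEF 3 of 18 passed as lower (1 without MEF 2) and 1, the splicing factor gene Esrp2, as higher, the latter not without PH 3, MEF 1 or MEF 2.

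Of 13 genes of intermediate filaments and their partners, 2 passed as higher in PH than in MEF and 3 as higher (1 without MEF 1) and 1 as lower in iHep. The epithelial keratin gene Krt8 was 4.35 and 5.71 in MEF, 7.99, 10.83 and 11.22 in 4a3, 4a3CK and 4a1CK, and 11.99, 11.78 and 12.48 in PH 1 to PH 3. It was higher by 7.06 in PH (adjusted p = 0.002) and by 4.99 in iHep (adjusted p = 0.0137, and 0.105 without MEF 1). Krt18, the partner keratin, was higher by 6.76 in PH (adjusted p = 0.00327) and 4.67 in iHep (adjusted p = 0.0217), the latter not without MEF 1 or 4a3. The lines and PH thus carried keratin signals above those of MEF, while the Vim signal did not separate the groups. The nuclear lamin gene Lmna fell by 1.60 in iHep (adjusted p = 0.014), and not without MEF 1, MEF 2 or 4a3.

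The 13 other S100 genes did not follow S100a4. None passed between PH and MEF by limma, with 1 of 13 at an unadjusted p under 0.05. S100a11, which like S100a4 is a small calcium-binding protein, was the only one that passed in the lines. It was 11.13 and 11.17 in MEF, 9.88, 10.09 and 10.01 in 4a3, 4a3CK and 4a1CK, and 11.50, 11.55 and 11.02 in PH. It was lowest in the lines, with -1.15 from MEF (adjusted p = 0.0256, lost without MEF 1, MEF 2, 4a3 or 4a1CK) and -1.37 from PH (adjusted p = 0.00714), a different order from that of S100a4. The median of the 13 was 0.42 in iHep and 0.22 in PH, against 0.16 and 0.25 for all genes.

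Tcf21 acts with other basic helix-loop-helix and mesenchymal factors, several of which were well above background where Tcf21 was not. Of 24, 8 passed as lower and 0 as higher in PH than in MEF, and 4 as lower without MEF 1 or without MEF 2. In iHep 5 passed as lower, with 1 to 8 when 1 array was left out, the fewest without MEF 2 and the most without 4a1CK. Twist2 was 9.31 and 8.43 in MEF, 5.98, 6.79 and 7.84 in 4a3, 4a3CK and 4a1CK, and 3.58, 3.71 and 4.33 in PH 1 to PH 3. It was graded like S100a4, with a fall of 5.00 in PH (adjusted p = 0.000826) and a signal higher by 2.997 in iHep than in PH (adjusted p = 0.00752). Twist1 was below the ceiling on all PH arrays, at least 15.98-fold lower than in MEF (adjusted p = 0.00272) and at least 5.58-fold lower than in iHep (adjusted p = 0.0141, lost without PH 1 or PH 2). Prrx1, a homeobox factor of limb and connective tissue mesenchyme, fell by 4.60 in PH (adjusted p = 0.00918, lost without MEF 1 or MEF 2). The median of the list was -0.58 in PH and -0.18 in iHep.

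**Figure D4:**
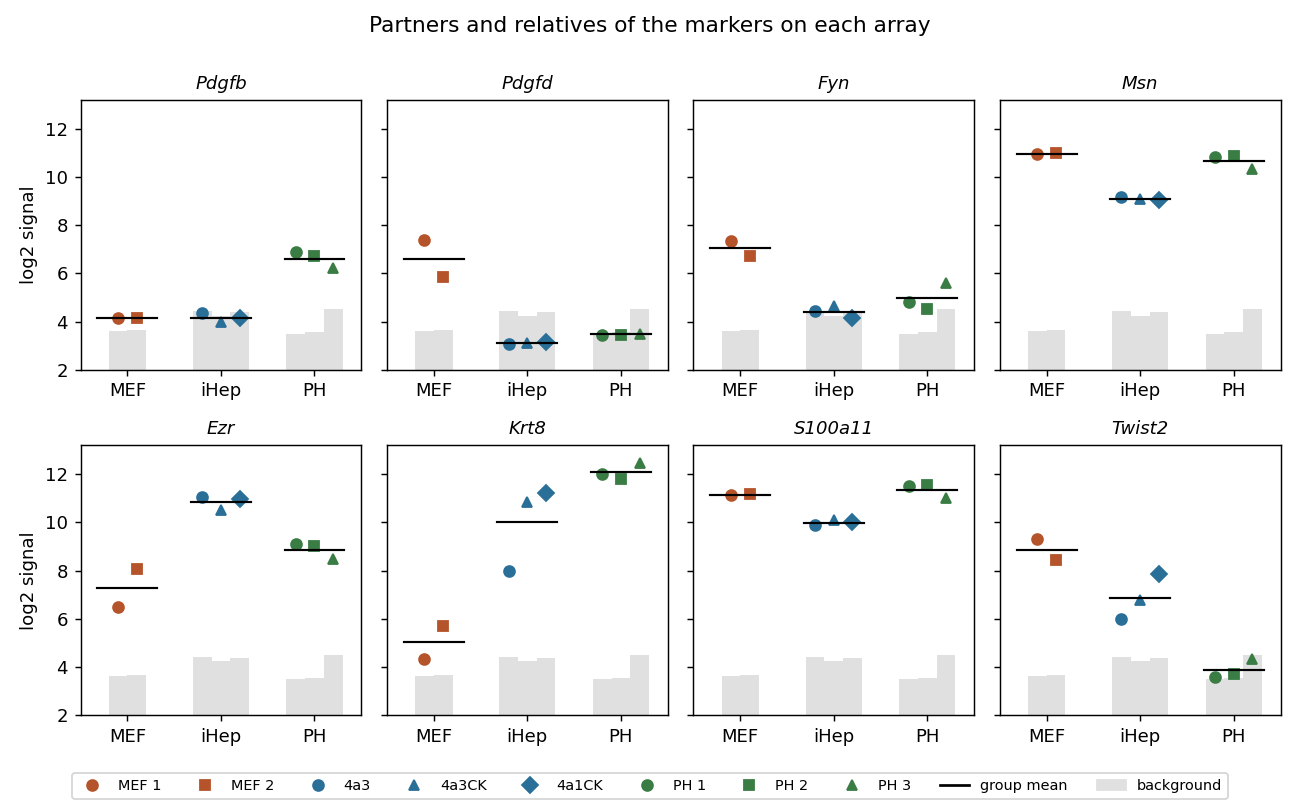
Log2 signal (vertical axis) on each of the 8 arrays for partner genes of the markers, grouped on the horizontal axis as MEF, iHep and PH, with a point per array, a line at the group mean and grey bars up to each background ceiling. Pdgfb is high in PH only, Pdgfd and Fyn in MEF, Msn and S100a11 are lowest in the lines where Ezr is highest, Krt8 is high outside MEF, and Twist2 steps down from MEF over iHep to PH.

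Of 17 other mesenchymal surface proteins, 7 passed as lower and 0 as higher in PH than in MEF (4 without PH 1), and 8 as lower and 0 as higher in iHep (5 without MEF 2). The median was -0.51 in PH and -1.14 in iHep. Every PH value lay above both MEF values for Alcam (difference 3.25), Nt5e (2.20) and Cdh2 (1.10), but none of these passed. Cdh11, the mesenchymal cadherin, was below background on all 6 arrays outside MEF, as Thy1 was. It was at least 143-fold higher in MEF than in PH (adjusted p = 3.18e-06) and at least 101.1-fold higher than in iHep (adjusted p = 5.02e-06). Pdpn, the surface mucin podoplanin, fell by 5.09 in PH (adjusted p = 0.000271) and was below background in the lines, at least 30.8-fold lower than in MEF (adjusted p = 0.000312). Ddr2, a receptor tyrosine kinase for fibrillar collagen, differed from these. It was 8.08 and 8.21 in MEF, 7.34, 6.72 and 6.94 in 4a3, 4a3CK and 4a1CK, and 3.40, 3.79 and 4.00 in PH 1 to PH 3. The lines lay nearer to MEF than to PH, with -1.14 for iHep minus MEF (adjusted p = 0.0456, held in only 1 of the 8 fits with an array left out), and Ddr2 was higher by 3.27 ± 0.25 in iHep than in PH (adjusted p = 0.000181).

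Of 19 fibroblast matrix genes, 15 passed as lower in PH than in MEF, 7 without MEF 1 and 9 without PH 3, and 10 as lower in iHep, with 0 higher in both. The median was -5.05 in PH and -4.46 in iHep. The periostin gene Postn and the tenascin gene Tnc were below background in all 3 lines, at least 124-fold and 97.2-fold lower than in MEF (adjusted p = 6.57e-05 and 0.000162). The collagen gene Col3a1 fell in iHep (adjusted p = 0.0032), with 12.26 and 11.84 in MEF, 3.83 in 4a3 and 3.78 in 4a3CK, both below background, and 7.12 in 4a1CK. In PH Postn fell by 5.88 (adjusted p = 7.11e-05). Not all genes of the list fell in every line. The fibronectin gene Fn1 was 11.63 and 11.24 in MEF, 11.45, 9.71 and 11.47 in 4a3, 4a3CK and 4a1CK, and 11.89 to 12.23 in PH. Col6a1 was 10.11 and 9.74 in MEF, and 9.74, 5.91 and 8.49 in the same lines. Between iHep and PH, 2 of the 19 passed as higher and 3 as lower in iHep, counts that moved when 1 array was left out. The mean log2 signal of the list was 10.32 and 9.29 in MEF, 6.28, 5.09 and 6.30 in 4a3, 4a3CK and 4a1CK, and from 5.39 to 5.62 in PH. Like S100a4 and Vim it was lowest among the lines in 4a3CK.

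Markers of other cell types were read on the same arrays. Of 13 hepatocyte markers 9 passed as higher in PH than in MEF, 3 without MEF 1 or MEF 2 and 5 without PH 2 or PH 3, and their mean was 4.28 on both MEF arrays, 7.13, 6.76 and 4.87 in 4a3, 4a3CK and 4a1CK, and 8.92 to 9.54 in PH. The albumin gene Alb was 9.30 in 4a3 but 3.80 in 4a3CK and 4.01 in 4a1CK, below their ceilings, so 2 of 3 lines had no Alb signal above background. In iHep 1 of 13 passed as higher than in MEF (4 without 4a1CK) and 5 as lower than in PH (2 without PH 1 or PH 2). The one that was higher, the apolipoprotein gene Apoa1, was 12.82, 12.66 and 10.39 in 4a3, 4a3CK and 4a1CK, with a difference of 7.16 from MEF (adjusted p = 0.000928), and it was higher by 5.22 in PH (adjusted p = 0.00343). Of 11 macrophage and leukocyte markers, 10 were above background on each MEF array, 3 to 5 in the lines and 8 to 10 in PH. These counts also follow the ceilings, which were higher in the lines and PH 3. The T cell list, in which no gene passed, gave 5 on each MEF array and 2 on each line. Among the 11 macrophage and leukocyte markers, 3 passed as lower and 1 as higher in PH than in MEF. In iHep, 3 of them passed as lower than in MEF and 0 as higher. The mean of the 11 was 5.23 and 5.75 in MEF, 4.35 to 4.44 in the lines and 4.65 to 5.14 in PH. The macrophage lysozyme gene Lyz2 was 8.54 and 9.28 in MEF, 3.46 to 3.57 in the lines and 4.26 to 4.97 in PH, and fell by 4.18 in PH (adjusted p = 0.000153). In the lines it was below background, at least 23.6-fold lower than in MEF (adjusted p = 0.000102). The monocyte gene Cd14 went the other way, with 6.36 and 5.88 in MEF and 9.10 to 10.29 in PH, a difference of 3.59 (adjusted p = 0.0343) that was lost without either MEF array or any 1 PH array. Leukocytes are known to carry S100a4, Cd44 and Vim, and the part of the macrophage signal in the MEF values of these genes was not tested.

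The remaining lists were flatter. None of 7 T cell markers passed in any comparison by limma, with 1 of the 21 gene and comparison pairs at an unadjusted p under 0.05, and their mean was 4.09 to 4.56 over the 8 arrays. T cells are known for Thy1. Of 13 hepatic stellate cell markers none passed in PH against MEF and 1, the pericyte gene Rgs5, passed as lower in iHep (adjusted p = 0.0363, lost in 7 of the 8 fits, and below background in the lines), with means of 4.07 to 4.68. None of 11 endothelial markers passed, with 1 of 33 pairs at an unadjusted p under 0.05 and means of 4.15 to 5.11, the highest in PH 3. Of 8 mesothelial markers 2, Krt19 and Podxl, passed as higher in iHep than in MEF, by 5.03 and 4.72 (adjusted p = 0.00325 and 0.00213), and both are also epithelial genes. The mesothelial mean was 4.05 and 4.33 in MEF, 5.73 to 5.94 in the lines and 4.69 to 4.77 in PH.

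For each member the genes with the most similar profile over the 8 arrays were found by the root mean square difference of log2 signals after centring each gene on its mean. With 3 groups, such likeness mostly reflects the group pattern. Nearest to Thy1 were Ptx3 (0.36), Fbln5 (0.51) and Thbs2 (0.55), which code for proteins secreted into the matrix. Nearest to Pdgfrb were Shox2 (0.0875), Olfml3 (0.19) and Pdgfd (0.20), so 1 of its own ligand genes was among the 3. Nearest to Pdgfra were Col1a2 (0.26), Svep1 (0.27) and Ccl12 (0.27), and nearest to Fap were Fabp3 (0.13), Slc2a3 (0.17) and Chst2 (0.18). Nearest to S100a4 were Serpinh1 (0.74), Pcolce (0.80) and Dnm3os (0.82), and this distance grows with the spread of a gene, which was wide for S100a4. Cd44 was followed by Mfap3l (0.15), Scmh1 (0.16) and Tcf3 (0.16), and Vim, whose range is small, by Clta (0.11), Fnbp4 (0.11) and Ubp1 (0.12). For Tcf21, which was at background, the nearest genes Nfam1 (0.029), Triml1 (0.03) and Ttc41 (0.042) were close to background as well.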

How the data were processed

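Total RNA, 100 ng per sample, from 2 MEF, 3 iHep and 3 PH samples was hybridized to mouse 3′ expression arrays, 1 array per sample. The authors deposited 1 log2 signal for each probe set and array, computed by RMA in Partek per the submitters' processing notes, with versions not given in the sources used here. They were used as deposited. RMA usually includes quantile normalization, but the deposited arrays were not on 1 distribution, with medians from 4.23 to 5.06. Arrays have no read depth, and their number limits the precision. Symbols came from the platform annotation (28898 probe sets with 1 symbol, 551 with several and 15692 with none), and 104 control probe sets were left out of the tests.

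A model with 3 groups was fitted to 17097 genes on all 8 arrays (5 residual degrees of freedom) in limma 3.58.1 under R 4.3.3, by lmFit followed by eBayes, two-sided, with Benjamini-Hochberg adjustment over all genes. Passing needed an adjusted p under 0.05 and a log2 difference of at least 1. The code of the fit was run on simulated data with known changes and independent noise on each array. Those data lacked the shift of PH 3 and the likeness of PH 1 and PH 2, so that run does not bear on the spread of the real arrays. Plots used Python 3.11.15, pandas 2.3.3 and matplotlib 3.10.9. Promoters and positions are from RefSeq (GRCm38.p6).

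The members and the gene lists were chosen with earlier results of these data known, so the counts of a list are descriptions. Named besides the members were the 3 genes nearest to each, up to 4 of the largest differences among the genes of a list that passed, and genes needed to read a count of 5 or fewer.

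Replicate numbers shared by MEF 1, PH 1 and MEF 2, PH 2 were checked by the correlation across genes of MEF 1 minus MEF 2 with PH 1 minus PH 2, which was -0.20, so the numbers were not treated as pairs. PH 1 and PH 2 differed with an SD across genes of 0.16, against 0.57 for MEF 1 and MEF 2, and averaging them was an alternative. Other alternatives were the mean of all probe sets, probe sets specific to 1 transcript, a filter on dim genes (below the 40th percentile), quantile normalization, subtraction of array medians, a trended and robust variance, fits of only the groups compared, each line as its own group, a block by the range of sample numbers, the replicate number as a block, and the omission of each array. A block by the hybridization control level, a crossed pairing and the lists with 1 array left out were chosen after seeing the data.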

Additional observations from a re-analysis of the deposited data

How the results depend on the processing

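The members that passed numbered 3 to 5 in PH against MEF, 4 to 6 in iHep against MEF and 1 in iHep against PH over the alternatives run. Thy1 and Pdgfrb in both comparisons with MEF, S100a4 in both with PH and Cd44 in iHep against MEF kept their calls in all of them, while Fap, Pdgfra and S100a4 in iHep against MEF did not, as given with each gene. Counts over all genes moved more. With the hybridization control level as a block, 2418 genes passed in iHep against MEF (1103 as deposited) and 2951 in iHep against PH (1219 as deposited). The lines and MEF never share a side of that block, so the first count rests on PH. With PH 1 and PH 2 averaged, 588 passed in iHep against PH, and Fap no longer passed in PH against MEF (adjusted p = 0.0796). Leaving out 1 array gave 575 to 1156 genes in PH against MEF (1000 as deposited), 471 to 1874 in iHep against MEF and 576 to 1806 in iHep against PH. The members gave 3 to 4, 4 to 5 and 1 to 1 in these fits. The split into higher and lower moved with the scaling. In PH against MEF it was 473 higher and 664 lower after subtraction of array medians. In iHep against MEF it was 339 and 764 as deposited and 611 and 961 after quantile normalization. In iHep against PH it was 254 and 965 as deposited, 527 and 800 after quantile normalization and 465 and 816 after subtraction of medians. The cause of these shifts was not tested.

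The members without a called difference changed sign in some fits. In iHep against PH, Pdgfra was -0.16 with the control level as a block, Pdgfrb was 0.16 and Thy1 0.046 with the range of sample numbers as a block, and Fap ranged from -0.33 to 0.14 and Thy1 from -0.28 to 0.041 with 1 array left out. Tcf21 was -0.00017 in PH against MEF after subtraction of medians and -0.055 to 0.044 in iHep against MEF with 1 array left out. Vim in iHep against MEF was -0.14 with the mean of probe sets, -0.31 with specific probe sets, -0.38 after quantile normalization, -0.18 after subtraction of medians, -0.15 and -0.38 with the range of sample numbers and the control level as blocks, and -0.16 to 0.21 with 1 array left out. Vim in iHep against PH was -0.021, -0.095, -0.083 and -0.13 with specific probe sets, quantile normalization and the same blocks, and -0.042 to 0.33 with 1 array left out.

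With the replicate number as a block, 900 genes and 3 members passed in PH against MEF, and Fap was the member lost (-2.10, adjusted p = 0.0696). The crossed pairing gave 1307 genes and 4 members. The filter on dim genes removed Tcf21, which has no value there. Signals below the background ceiling, such as those of Thy1 outside MEF, Pdgfrb and Fap in the lines and Tcf21 throughout, have no order, and those of Vim may be compressed near the top of the range.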

Other observations

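Among the S100 genes on the array, some that did not pass between groups were high in a single line. These were chosen after their values were seen, and with 1 array per line there is no test. S100a16 was 11.25 in 4a3CK against 6.66 in 4a3 and 6.26 in 4a1CK, with 6.70 to 6.79 in MEF and 7.18 to 7.75 in PH. S100a13 was 10.34 in 4a3CK, 8.61 in 4a3 and 6.69 in 4a1CK, with 6.84 to 7.49 in MEF and 7.36 to 7.62 in PH. Both were highest in the line where S100a4 was lowest. S100g, which codes for a vitamin D-dependent calcium-binding protein, was 6.61 in 4a1CK and from 3.18 to 3.73 on the other 7 arrays, below their ceilings apart from PH 1. S100a6 was high on all arrays, from 11.57 to 12.46.

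The mesenchymal transcription factor Snai2 was 7.91 in 4a1CK, close to 8.01 and 8.00 in MEF, while it was 5.85 in 4a3 and 4.87 in 4a3CK and 4.35 to 5.27 in PH. Twist1 was likewise highest among the lines in 4a1CK, at 7.52 against 5.78 and 5.70, and the MEF arrays gave 7.40 and 8.31. The surface cadherin gene Cdh2 was 8.04 in 4a3, 5.59 in 4a1CK and 3.38 in 4a3CK, against 8.74 and 9.22 in MEF and 10.02 to 10.17 in PH.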
